A study of Arabidopsis thaliana with 12 samples.

Results

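The ketoacyl-CoA synthase (KCS) genes of Arabidopsis thaliana were examined as a family, with KCS17 (AT4G34510) set against its paralogs. The rule lists 10 KCS loci by name. They were selected on the measured difference of KCS17 between irradiated and untreated seedlings, and its paralogs by family. Of these, 9 were among the 16947 loci of the table, and KCS6 (AT1G68530) was not analysed here. All 9 passed a filter that kept the 9889 loci with a log2 value of 4 or more on at least 3 arrays, KCS17 only through the arrays on which it was high. The other 8 were KCS1, KCS2, KCS4, KCS5, KCS8, KCS9, KCS10 and KCS20.

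A ketoacyl-CoA synthase is the condensing enzyme of the fatty acid elongase in the endoplasmic reticulum. It joins malonyl-CoA to an acyl-CoA, and a ketoacyl reductase, a dehydratase and an enoyl reductase then complete each round of lengthening. The family member that acts largely sets the chain length of the product, and the very long chains feed cuticular waxes, suberin, sphingolipids and, in seeds, storage oil.

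Transcripts were measured on 12 Affymetrix arrays of whole 5-day-old seedlings of the Col-0 ecotype, in 4 groups of 3 replicates that the titles call biological. The groups were gmi1-1 irradiated, gmi1-1 untreated, wild type irradiated and wild type untreated. The mutant gmi1-1 (SALK_036931) is a T-DNA insertion line of GMI1 (AT5G24280), a gene that depends on the kinase ATM, and the series asked whether GMI1 is needed for the transcriptional changes after gamma rays. Irradiated seedlings received 100 Gy from a cobalt-60 source and were harvested 1.5 h later, and how the untreated plates were handled meanwhile is not stated in the labels. In whole seedlings, fewer cells that express a gene and less RNA per cell cannot be told apart. Values are log2 expression as deposited, so that a difference of 1 is a doubling. A probe set's level was not set against that of another.

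One library went against its label. GMI1 stood at 1.44, 1.60 and 1.29 in gmi1-1 irradiated replicates 1, 2 and 3 and at 1.66, 1.31 and 1.24 in the untreated ones, against 9.97, 10.92 and 10.46 in wild type irradiated and 2.53, 1.87 and 2.34 in wild type untreated. It was high only in irradiated wild type. BRCA1 (AT4G21070), a DNA repair gene known to be induced by double-strand breaks, read 10.56, 11.48 and 10.99 in gmi1-1 irradiated seedlings, whereas the gmi1-1 untreated replicates had 10.54, 2.70 and 2.90. The library labelled gmi1-1 untreated replicate 1 differed by more than 1 log2 unit from gmi1-1 irradiated replicate 1 at 162 loci, and from the other gmi1-1 untreated libraries at 1553 and 1430. Results on gmi1-1 are therefore given with all libraries as labelled and again without both gmi1-1 replicate 1 libraries, which leaves 2 against 2 arrays. By BRCA1, gmi1-1 irradiated replicate 1 did not itself go against its label. Separately, gmi1-1 irradiated replicate 3 had a narrower spread of values than the other arrays, with an interquartile range of 4.70 against 5.28 to 5.83. Its GAPDH control probe set for the 5′ end lay 1.30 below that for the middle of the transcript, a difference of -1.30 against -0.47 to -0.17 elsewhere. Photosynthesis markers (2 of 4 in the table) lay between 13.3 and 13.8 on average on all arrays and all 4 root markers were in the table, with averages between 5.16 and 6.55.

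KCS17 was near the bottom of the scale in untreated seedlings and well above it after irradiation. The log2 value was 6.89, 8.16 and 6.72 in gmi1-1 irradiated replicates 1, 2 and 3 and 6.89, 1.47 and 1.72 in gmi1-1 untreated. In wild type it was 7.81, 8.20 and 7.21 irradiated and 2.25, 1.47 and 1.64 untreated. The irradiated and untreated wild type arrays were far apart, and in gmi1-1 the library labelled untreated replicate 1 stood with the irradiated arrays. The enzyme's own products are less well described than those of the wax paralogs. Group means were highest in wild type irradiated at 7.74 ± 0.50, then gmi1-1 irradiated at 7.26 ± 0.79, gmi1-1 untreated at 3.36 ± 3.06 and wild type untreated at 1.79 ± 0.41 (SD, n = 3 each). Neighbours in that order overlapped, except that gmi1-1 untreated replicates 2 and 3 lay between 1.47 and 1.72, far below both irradiated groups. GCRMA compresses values near background, so the size of a change that starts there is uncertain.

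**Figure D1:**
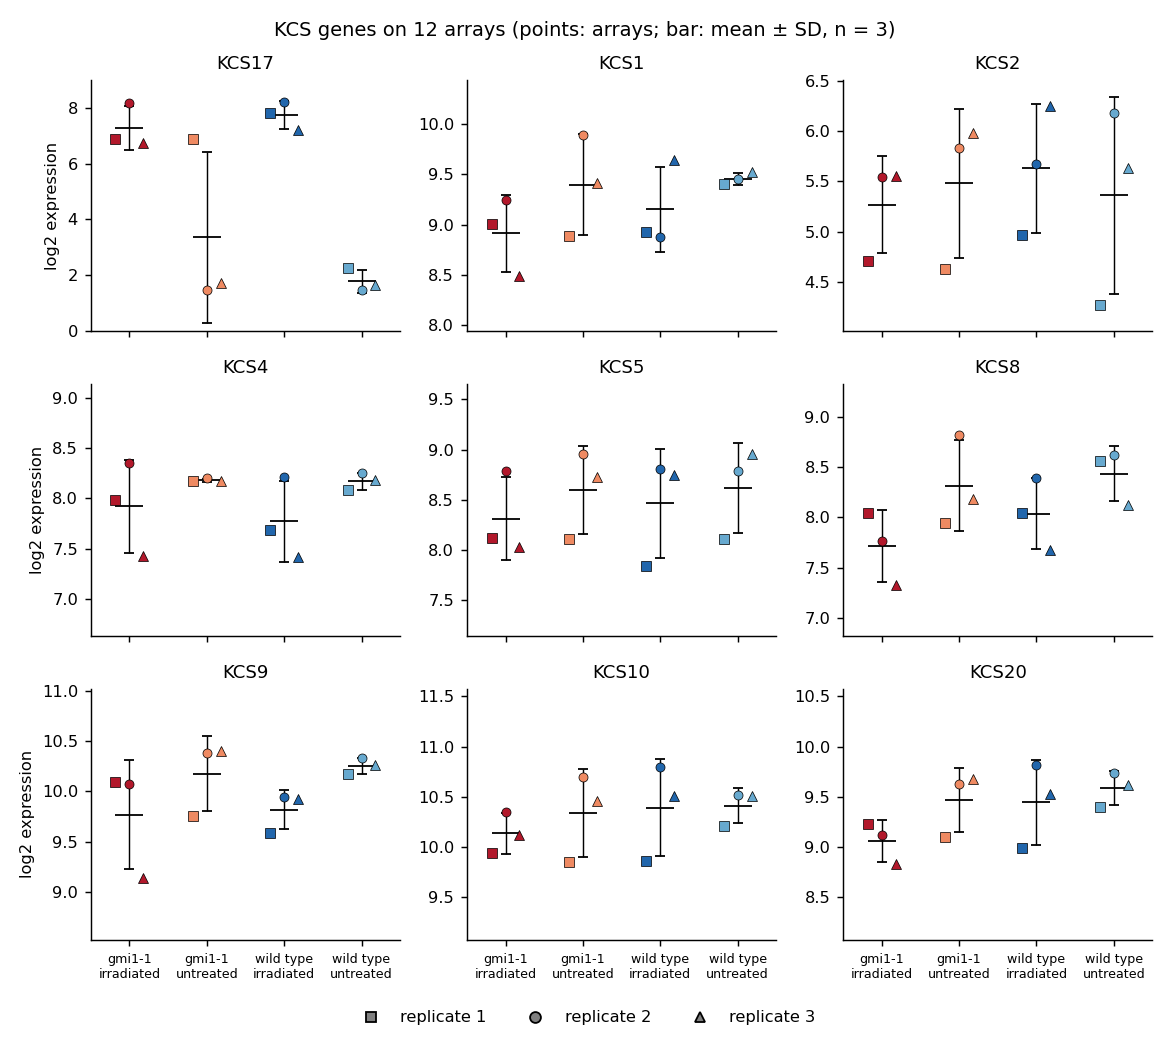
Log2 expression (vertical axis) of the 9 KCS genes by group, with each array as a point, its symbol giving the replicate number, and bars for the mean ± SD of 3 arrays. The KCS17 panel runs from 0 to 9 and the other panels each span 2.5 log2 units around that gene's own values. KCS17 stands at 6.72 or more on all irradiated arrays and on the library labelled gmi1-1 untreated replicate 1, while the paralogs move within about 2 log2 units.

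KCS17 was chosen for its rise, with no genotype named, so its differences are descriptions with no test. In wild type the difference was 5.95 on the log2 scale (SE 1.10), a 62.0-fold difference, and ranked 24 among the positive differences of the 9889 loci. Leaving out each array in turn gave 5.72 to 6.22.

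In gmi1-1 the KCS17 difference was 3.90 (SE 1.10) as labelled. Without both replicate 1 libraries, where KCS17 stood at 6.89 irradiated and 6.89 untreated, it was 5.85 (SE 0.48), with 8.16 and 6.72 in irradiated seedlings and 1.47 and 1.72 in untreated ones. It ranked 20 among all loci there. Without gmi1-1 irradiated replicate 3 as well, it was 6.57. With all 12 arrays kept but weighted by their own scatter it was 5.59.

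The difference between the genotypes in the KCS17 response depended on the same library. The gmi1-1 change minus the wild type change was -2.06 (SE 1.56) as labelled and -0.11 (SE 0.61) without both gmi1-1 replicate 1 libraries. Leaving out gmi1-1 irradiated replicate 3 too gave 0.61 (SE 0.54). Among irradiated seedlings, gmi1-1 minus wild type was -0.48 (SE 1.10), and among untreated ones it was 1.57 (SE 1.10) as labelled but -0.19 (SE 0.43) without both gmi1-1 replicate 1 libraries.

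None of the 8 paralogs passed the test for irradiation in wild type (limma's moderated test, Benjamini-Hochberg adjustment over all 9889 loci, threshold 0.05), where 449 of all loci did (4.54% called, 317 higher and 132 lower), and none had an unadjusted p under 0.05, as 1804 loci did. Their log2 changes ran between -0.44 for KCS9 and 0.27 for KCS2, with limma adjusted p between 0.437 and 0.977. The median was -0.23, beside -0.11 over all loci tested, and 7 of 8 were negative, as were 60.3% of all loci. The 95% confidence intervals reached -1.05 at the lowest (KCS9) and 1.41 at the highest (KCS2), and changes inside a gene's own interval are not excluded. With the replicate number as a block they reached -1.05 (KCS9) and 0.83 (KCS2). Centring each array on its median moved the wild type split to 315 higher and 238 lower loci.

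KCS9 (AT2G16280), which makes very-long-chain fatty acids for waxes, suberin and sphingolipids, was the one paralog whose wild type groups did not overlap. It stood at 9.59, 9.94 and 9.92 in irradiated seedlings, against 10.17, 10.33 and 10.26 in untreated ones. All 3 irradiated arrays were lower, by 0.34 to 0.58 within a replicate number. KCS8 and KCS4 were also lower within each number, by 0.23 to 0.52 and 0.04 to 0.76, though their groups overlapped. Separation of the groups was common, at 17.3% of all loci with irradiated arrays lower and 10.8% with them higher. The change was -0.44 (SE 0.28, limma adjusted p = 0.437). In gmi1-1 KCS9 was 10.09, 10.07 and 9.14 irradiated, against 9.75, 10.38 and 10.40 untreated, and the groups overlapped.

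KCS1 and KCS5 overlapped between the treatments in both genotypes as labelled. KCS1 (AT1G01120), which acts on a broad range of chain lengths for waxes, stood at 9.01, 9.24 and 8.49 in gmi1-1 irradiated and at 8.89, 9.89 and 9.41 in gmi1-1 untreated. In wild type it stood at 8.93, 8.88 and 9.64 irradiated, against 9.40, 9.45 and 9.52 untreated. The wild type untreated arrays lay close together and the irradiated ones on both sides of them. KCS5 (AT1G25450, also CER60), the close relative of the wax enzyme KCS6, stood at 8.12, 8.79 and 8.03 in gmi1-1 irradiated and at 8.11, 8.96 and 8.73 in gmi1-1 untreated. In wild type KCS5 stood at 7.84, 8.81 and 8.75 irradiated, against 8.11, 8.79 and 8.96 untreated.

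KCS10 (AT2G26250), known as FIDDLEHEAD for the organ fusions of its mutants, stood at 9.94, 10.35 and 10.12 in gmi1-1 irradiated and at 9.85, 10.70 and 10.46 in gmi1-1 untreated. In wild type it stood at 9.86, 10.80 and 10.51 irradiated, against 10.21, 10.52 and 10.51 untreated. The KCS10 ranges overlapped in both genotypes, and its wild type change of -0.02 (SE 0.28) was the one closest to 0.

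KCS2 (AT1G04220) and KCS20 (AT5G43760), a closely related pair that acts redundantly in root suberin and in waxes, were called in neither genotype. KCS2 stood at 4.71, 5.54 and 5.55 in gmi1-1 irradiated and at 4.63, 5.83 and 5.98 in gmi1-1 untreated. In wild type KCS2 stood at 4.97, 5.67 and 6.25 irradiated, against 4.27, 6.18 and 5.63 untreated. In every group its lowest array was replicate 1. KCS20 stood at 9.23, 9.12 and 8.83 in gmi1-1 irradiated and at 9.10, 9.63 and 9.68 in gmi1-1 untreated. In wild type KCS20 stood at 8.99, 9.82 and 9.53 irradiated, against 9.40, 9.74 and 9.62 untreated. The wild type changes were 0.27 (SE 0.52) for KCS2 and -0.14 (SE 0.25) for KCS20. As labelled, the gmi1-1 changes were -0.21 (SE 0.52) for KCS2 and -0.41 (SE 0.25) for KCS20. The difference between these genes was not tested.

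KCS4 (AT1G19440) stood at 7.98, 8.35 and 7.43 in gmi1-1 irradiated, against 8.17, 8.20 and 8.17 untreated, and at 7.69, 8.21 and 7.42 in wild type irradiated, against 8.08, 8.25 and 8.18 untreated. The 6 untreated arrays of KCS4 lay close together. The irradiated ones lay inside and below that range, except that gmi1-1 irradiated replicate 2 was the highest of the 12 arrays. KCS8 (AT2G15090) stood at 8.04, 7.77 and 7.33 in gmi1-1 irradiated, against 7.95, 8.82 and 8.18 untreated, and at 8.04, 8.39 and 7.68 in wild type irradiated, against 8.56, 8.62 and 8.12 untreated. KCS8 overlapped between treatments in both genotypes as labelled.

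None of the paralogs passed the test for irradiation in gmi1-1. As labelled, 0 of all loci were called (0% called, 1306 at an unadjusted p under 0.05), and the 8 paralogs' changes were all negative, as were those of 77.2% of all loci. They lay between -0.60 and -0.20, and the median was -0.35, beside -0.23 over all loci. All 9 KCS genes overlapped between treatments, where 12.2% of loci did not. With only untreated replicate 1 left out, 327 loci were called (154 higher and 173 lower) and no paralog. Without both gmi1-1 replicate 1 libraries, 750 loci were called (7.58% called, 243 higher and 507 lower) and no paralog. The 8 paralogs' changes were again negative, as were 78.2% of all, with a median of -0.56, beside -0.34 over all loci. At this setting 4 paralogs had an unadjusted limma p under 0.05. These were KCS8 at -0.95 (adjusted p = 0.115), KCS9 at -0.79 (adjusted p = 0.149), KCS1 at -0.79 (adjusted p = 0.192) and KCS20 at -0.68 (adjusted p = 0.192).

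The 2 remaining irradiated arrays of gmi1-1 lay below the 2 untreated ones for 6 paralogs, in a comparison where 46.8% of all loci did so, and above them for KCS17, which was chosen for its rise, as for 10% of loci. The array with the narrow spread weighed on these values. It was the lowest of all 12 arrays for KCS1, KCS8, KCS9 and KCS20. Without it the paralogs' median was -0.34, beside -0.14 over all loci, and 7 of 8 were negative, as were 60.9% of all loci, the exception being KCS4 at 0.165. None was called by limma where 343 loci were (3.47% called), nor had an unadjusted p under 0.05, as 1654 loci did.

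**Figure D2:**
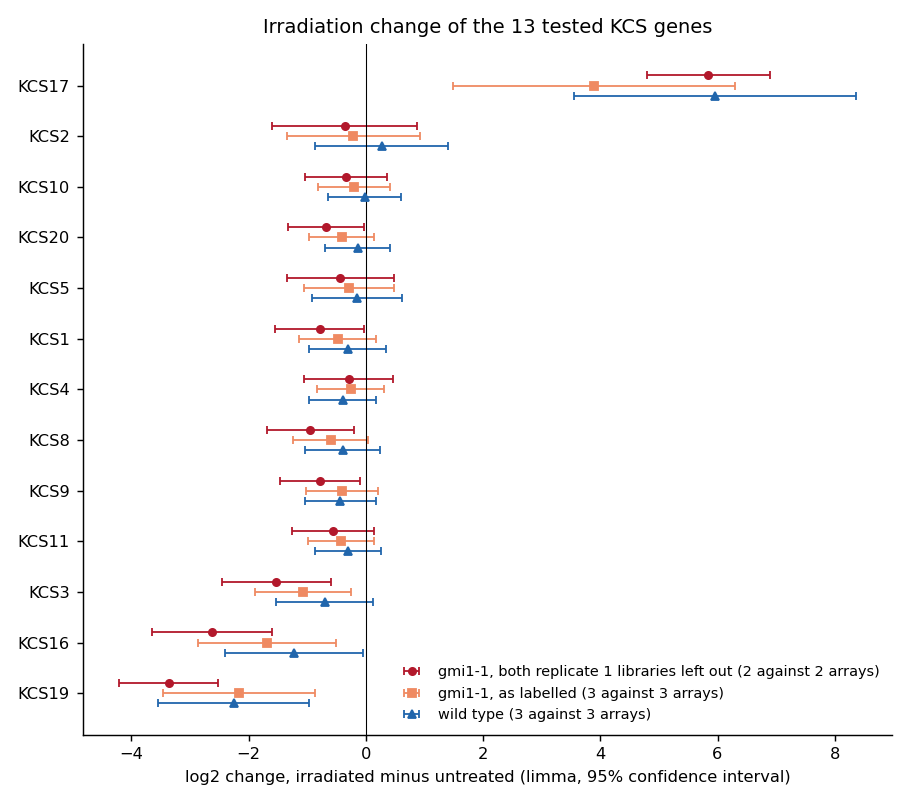
Log2 change, irradiated minus untreated, for the 13 tested KCS genes, with limma's estimate as a point and its 95% confidence interval as a bar, for gmi1-1 without both replicate 1 libraries, gmi1-1 as labelled and wild type. KCS17 lies far to the right, at 5.85, 3.90 and 5.95 in that order, and was chosen for its rise. The 8 paralogs lie between -0.95 and -0.295, -0.60 and -0.20, and -0.44 and 0.27 in the same order. KCS19, KCS16 and KCS3 lie to the left of them in each fit.

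Between the genotypes no paralog differed by the test, in untreated or irradiated seedlings or in the response. In each of these 3 comparisons limma called 1 locus of 9889 (0.0101% called). That locus was GMI1 for the difference in response (-8.16) and in irradiated seedlings (-9.01), and LCR67 (AT1G75830), a defensin-like gene, in untreated ones (3.60). At an unadjusted p under 0.05 there were 184, 764 and 42 loci in that order, and no paralog among them. The paralogs' median differences, gmi1-1 minus wild type, were -0.07 untreated and -0.25 irradiated, beside -0.09 and -0.24 over all loci. Their 95% confidence intervals reached from -1.02 to 1.26 untreated and from -1.50 to 0.77 irradiated, all 4 bounds being those of KCS2. With the replicate number as a block, which pairs the genotypes, they reached from -0.73 (KCS1) to 0.68 (KCS2) untreated and from -0.92 (KCS2) to 0.63 (KCS4) irradiated. For the difference in response the median was -0.18, beside -0.14 over all loci.

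Without both gmi1-1 replicate 1 libraries, again 1 locus was called. The 8 paralogs' untreated means were then all above those of wild type, by 0.02 to 0.55 with a median of 0.15, beside -0.03 over all loci. None of these differences was called by limma, nor had an unadjusted p under 0.05, as 195 loci did. Wild type replicate 1 was kept in this comparison, so its replicate numbers were not balanced. Within replicate numbers 2 and 3, only KCS8 (0.20 and 0.06) and KCS9 (0.05 and 0.14) were above wild type in both. KCS4 was below it in both (-0.05 and -0.01), and the other paralogs had no common sign. KCS9 was the one KCS gene whose untreated arrays then separated, at 10.38 and 10.40 in gmi1-1, against 10.17, 10.33 and 10.26 in wild type, in a comparison where 7.45% of loci were separated in that direction.

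KCS2 and, less cleanly, KCS5 were spread by replicate number. The 4 replicate 1 arrays of KCS2 lay between 4.27 and 4.97 and the 8 others between 5.54 and 6.25, with no overlap. For KCS5 replicate 1 lay between 7.84 and 8.12, and the others between 8.03 and 8.96, all but gmi1-1 irradiated replicate 3 being at 8.73 or more. KCS10 was likewise lowest in replicate 1 in each of the 4 groups. The labels do not say what a replicate number stands for. In a fit with a term for replicate 1, added after these values were seen, replicate 1 minus replicates 2 and 3 was -1.18 for KCS2 (SE 0.18, limma adjusted p = 0.00381), -0.68 for KCS5 (SE 0.17, limma adjusted p = 0.0374) and -0.53 for KCS10 (SE 0.14, limma adjusted p = 0.0508) over the 12 arrays, where 7.15% of loci were called. These arrays include the library that went against its label. On the 6 wild type arrays alone, where 0.445% of loci were called, the term was -1.31 for KCS2, -0.85 for KCS5 and -0.55 for KCS10, with limma adjusted p of 0.0931, 0.0718 and 0.183. Within replicate numbers the wild type irradiation difference of KCS2 was 0.70, -0.51 and 0.62, and that of KCS5 was -0.27, 0.02 and -0.21, without a common sign.

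**Figure D3:**
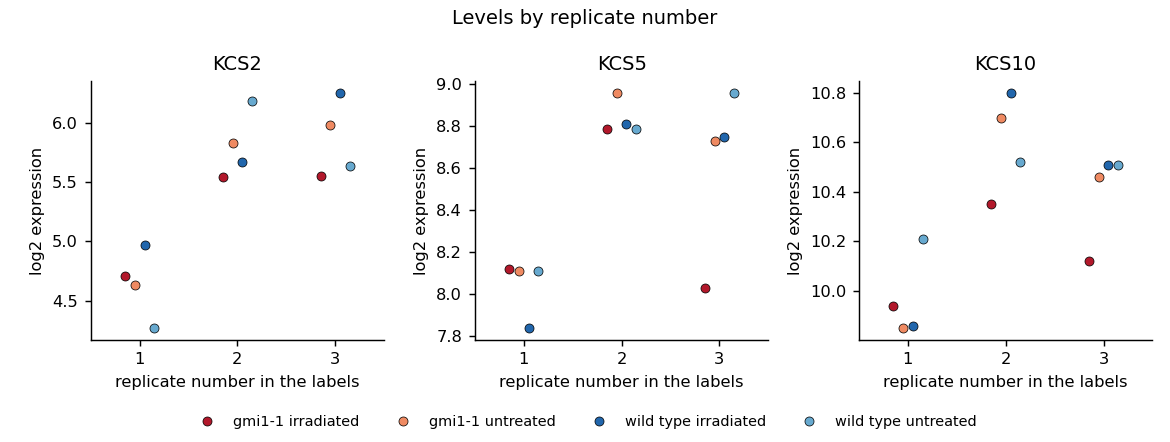
Log2 expression of KCS2, KCS5 and KCS10 (vertical axes, each with its own range) by the replicate number in the labels, with 1 point per array coloured by group. The replicate 1 arrays of KCS2 lie between 4.27 and 4.97, below the 8 others.

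The family holds 11 further KCS genes, of which 9 were in the table and 4 passed the filter. The neighbour of KCS17 in the RefSeq order of genes is KCS18 (AT4G34520), known as FAE1, which elongates the fatty acids of seed oil. KCS18 stood at 1.89, 2.01 and 1.54 in gmi1-1 irradiated and at 1.56, 1.68 and 1.81 in gmi1-1 untreated. In wild type KCS18 stood at 2.36, 1.92 and 2.01 irradiated, against 1.78, 1.74 and 1.84 untreated. It was near the bottom of the scale on all 12 arrays and was not tested, in contrast to the adjacent KCS17. KCS7, KCS12, KCS15 and KCS21 were also too low to test.

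All 4 tested members outside the rule were lower after irradiation, with a median of -0.97 in wild type, beside -0.11 over all loci. Of them, 0 were called in wild type in the main fit with all arrays and 1 without both gmi1-1 replicate 1 libraries, where 7.34% of loci were. KCS19 (AT5G04530) stood at 6.71, 5.84 and 4.96 in gmi1-1 irradiated, against 6.47, 8.89 and 8.64 untreated. In wild type KCS19 stood at 5.68, 6.27 and 6.15 irradiated, against 7.75, 8.56 and 8.55 untreated. Its wild type groups were widely separated, in a comparison where 17.3% of loci were separated in that direction. The library labelled gmi1-1 untreated replicate 1 stood with the irradiated arrays, as for KCS17.

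The wild type change of KCS19 was -2.25 (SE 0.59) and fell just short of the threshold with all arrays (limma adjusted p = 0.0528). It was the 46th largest fall of 9889. Without both gmi1-1 replicate 1 libraries the spread was smaller and KCS19 fell by 2.25 in wild type (SE 0.31, limma adjusted p = 0.0011) and by 3.37 in gmi1-1 (SE 0.38, limma adjusted p = 0.000443). As labelled, the gmi1-1 change was -2.16 (limma adjusted p = 0.234). Without gmi1-1 irradiated replicate 3 as well, KCS19 fell by 2.93 in gmi1-1 (limma adjusted p = 0.00711). The difference between genotypes in its response was 0.09 (SE 0.84) as labelled and -1.11 (SE 0.49, limma adjusted p = 0.999) without both gmi1-1 replicate 1 libraries.

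KCS16 (AT4G34250), tied to the longest wax chains of leaf hairs, stood at 4.52, 4.15 and 2.91 in gmi1-1 irradiated, against 4.33, 6.81 and 5.51 untreated. In wild type KCS16 stood at 4.11, 4.01 and 4.34 irradiated, against 5.15, 5.59 and 5.40 untreated, with no overlap, as for 17.3% of loci in that direction. The wild type change was -1.23 (SE 0.54, limma adjusted p = 0.251), and the gmi1-1 change was -1.69 as labelled (limma adjusted p = 0.258). KCS16 fell by 2.63 in gmi1-1 without both replicate 1 libraries (limma adjusted p = 0.00755). That call was lost without gmi1-1 irradiated replicate 3 as well (-2.01, limma adjusted p = 0.0671).

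KCS3 (AT1G07720), described as a restraint on the wax enzyme KCS6, changed by -0.70 in wild type (SE 0.38, limma adjusted p = 0.352) and by -1.53 in gmi1-1 without both replicate 1 libraries (limma adjusted p = 0.0534). KCS11 (AT2G26640) changed by -0.30 in wild type (limma adjusted p = 0.572), and neither gene was called in any comparison printed here.

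**Figure D4:**
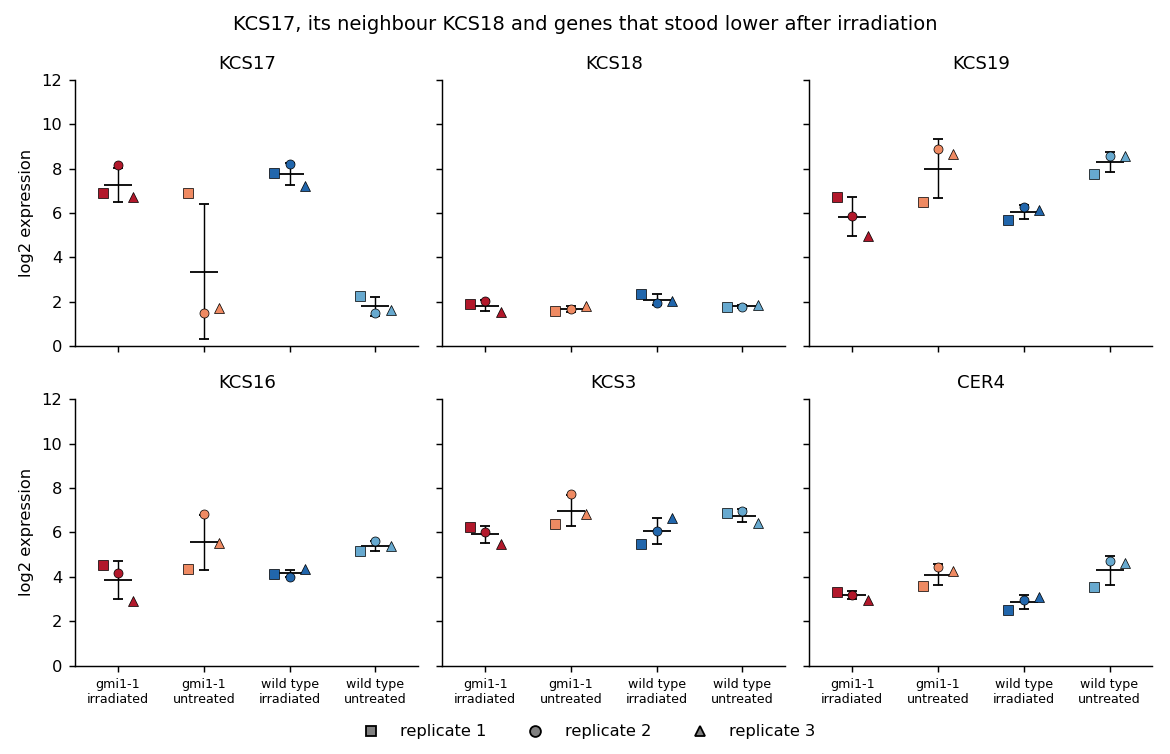
Log2 expression (vertical axis, shared scale) of KCS17, its neighbour KCS18, the KCS genes KCS19, KCS16 and KCS3 and the wax gene CER4 by group, with arrays as points, symbols for the replicate number and bars for the mean ± SD of 3 arrays. KCS17 and KCS19 move in opposite directions, and in both the library labelled gmi1-1 untreated replicate 1 stands with the irradiated arrays.

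The other enzymes of elongation and the pathways that use very long chains were mostly not called. Of 9 listed partner enzymes and modulators of the elongase, 6 were in the table and 5 were tested. In wild type none was called, and their median of -0.11 equalled that of all loci. In gmi1-1 none was called either, with a median of -0.39 as labelled, beside -0.23 over all loci. CER10 (AT3G55360), the enoyl reductase of the elongase, changed by -0.22 in wild type (SE 0.31, limma adjusted p = 0.743). CER26 (AT4G13840), a relative of CER2 that extends the reach of KCS6, changed by -0.40 (SE 0.21, limma adjusted p = 0.347).

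In wax synthesis and export, 7 of 11 genes in the table were tested, of 16 listed, and 1 was called in wild type, where 4.54% of all loci were. CER4 (AT4G33790), the acyl-CoA reductase that makes the primary alcohols of wax, stood at 3.32, 3.20 and 2.96 in gmi1-1 irradiated, against 3.58, 4.45 and 4.27 untreated. In wild type CER4 stood at 2.52, 2.97 and 3.11 irradiated, against 3.55, 4.72 and 4.63 untreated. The treatments did not overlap in either genotype. With irradiated arrays lower, 17.3% of all loci were so separated in wild type, and 12.2% were in either direction in gmi1-1. CER4 fell by 1.43 in wild type (SE 0.33, limma adjusted p = 0.0313), near the bottom of the scale, and its change in gmi1-1 was -0.94 (limma adjusted p = 0.285). The wild type call was lost without any 1 of wild type irradiated replicates 1, 2 and 3 and wild type untreated replicates 2 and 3, with limma adjusted p of 0.0961, 0.0988, 0.0619, 0.145 and 0.145. The list's median was -0.50 in wild type, beside -0.11 over all loci. The list also holds transcription factors, a repressor of wax genes among them, so its median gives no direction for wax synthesis.

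In cutin synthesis 8 of 10 genes were tested and 0 were called in wild type (median -0.24, beside -0.11 over all loci). Without both gmi1-1 replicate 1 libraries, LACS2 (AT1G49430), an acyl-CoA synthetase of cutin, fell by 1.81 in gmi1-1 (limma adjusted p = 0.0327). DCR (AT5G23940), a cutin acyltransferase, fell by 1.50 there (limma adjusted p = 0.0439). These were 2 of 8, where 7.58% of all loci were called. Neither was called in gmi1-1 with only untreated replicate 1 left out. As labelled, neither was called in gmi1-1, with limma adjusted p of 0.342 for LACS2 and 0.262 for DCR. Both calls were lost without gmi1-1 irradiated replicate 3 as well, with limma adjusted p of 0.186 for LACS2 and 0.238 for DCR.

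Suberin synthesis had 9 of 11 genes in the table but 2 tested, CYP86A1 (AT5G58860), a fatty acid hydroxylase of root suberin, and FAR1 (AT5G22500), a reductase for its alcohols. Their wild type changes were -0.16 (SE 0.59, limma adjusted p = 0.909) for CYP86A1 and -0.01 (SE 0.36, limma adjusted p = 0.991) for FAR1. Sphingolipid synthesis had 2 tested of 6 listed, the ceramide synthases LOH1 (AT3G25540) at -0.54 (SE 0.53, limma adjusted p = 0.614) and LOH2 (AT3G19260) at 0.26 (SE 0.28, limma adjusted p = 0.659). In the plastid, 2 of 7 listed genes were tested. FATA1 (AT3G25110), the thioesterase that releases oleate, changed by -1.22 in wild type (SE 0.37, limma adjusted p = 0.0923) and passed without both gmi1-1 replicate 1 libraries (limma adjusted p = 0.0297). FATB (AT1G08510), which releases saturated fatty acids, changed by -0.16 (SE 0.24, limma adjusted p = 0.752).

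In gmi1-1 as labelled, where no locus was called, the list medians were -0.60 for wax, -0.54 for cutin, -0.35 for suberin, -0.48 for sphingolipids and -0.50 for the plastid enzymes, beside -0.23 over all loci. Without both gmi1-1 replicate 1 libraries, 1 of 7 tested wax genes was called, where 7.58% of all loci were. It was DEWAX (AT5G61590), a transcription factor that represses wax genes, which fell by 1.78 (SE 0.47, limma adjusted p = 0.0456). FATA1 fell by 1.35 there (SE 0.36, limma adjusted p = 0.0465), and no suberin or sphingolipid gene was called. With only untreated replicate 1 left out, FATA1 was not called in gmi1-1. The irradiated replicate 1 array left out with it held the highest DEWAX value of the 12 arrays, 9.44. Neither DEWAX nor FATA1 passed in gmi1-1 without irradiated replicate 3 as well.

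Markers of the tissues in which KCS genes act were measured beside them. The epidermal marker PDF1 (AT2G42840), 1 of 2 listed in the table, lay between 9.33 and 10.14 in gmi1-1 irradiated and 10.34 and 10.53 in gmi1-1 untreated. In wild type PDF1 lay between 9.81 and 10.14 irradiated, against 10.41 and 10.54 untreated, a change of -0.57 (SE 0.22, limma adjusted p = 0.198). The 4 root markers averaged 5.16 to 6.13 in gmi1-1 irradiated and 5.91 to 6.55 in gmi1-1 untreated, and 5.63 to 6.17 in wild type irradiated, against 6.19 to 6.55 in wild type untreated, and none was called in wild type (median -0.45, beside -0.11 over all loci). Of 2 stomatal lineage genes, 0 were called in wild type (median -0.29, beside -0.11 over all loci). In gmi1-1 without both replicate 1 libraries, SPCH (AT5G53210) averaged 3.90 irradiated, against 4.60 untreated, and was not called. TMM (AT1G80080), a receptor-like protein of stomatal patterning, fell by 1.72 there (limma adjusted p = 0.0103), where 7.58% of all loci were called. That call was lost without gmi1-1 irradiated replicate 3 as well (limma adjusted p = 0.0674). The part of these markers in the values of the KCS genes was not tested.

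Over the 12 arrays the loci whose levels ran most like KCS17 were DNA damage genes. Among them were BRCA1 (Pearson r = 0.993), AT4G19130, a gene for a large subunit of replication protein A, which binds single-stranded DNA (r = 0.991), ATRAD17 (AT5G66130), a clamp loader of the damage checkpoint (r = 0.991), and PARP2 (AT4G02390), a poly(ADP-ribose) polymerase (r = 0.991). The arrays fall into a high and a low cluster for all of them, share their libraries and include the one that went against its label, so each r is a description. ATRAD17 stood at 7.66, 9.02 and 8.50 in gmi1-1 irradiated, against 7.55, 2.88 and 2.94 untreated, and at 9.10, 9.51 and 8.96 in wild type irradiated, against 3.42, 3.14 and 3.51 untreated. It was high and low on the same arrays as KCS17. The paralogs' r with KCS17 ran between -0.68 (KCS9) and -0.21 (KCS2), and KCS19 had -0.93.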

How the data were processed

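RNA of whole seedlings was hybridised to 12 arrays in 4 groups of 3, taken with the replicate numbers from the sample titles. The deposited log2 values were made by the authors with GCRMA, per the submitters' processing notes, and the sources used here give neither its version nor the array design. Names and gene order come from RefSeq TAIR10.1, which matched 16851 loci. No coordinates or sequences are given, since no build is named with the array.

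Loci with a log2 value of 4 or more on at least 3 of 12 arrays (9889) were fitted in limma 3.58.1 (R 4.3.3; lmFit, eBayes) with 1 mean per group. P-values are two-sided and adjusted by Benjamini-Hochberg over all loci of a contrast, called under 0.05. They set a difference between group means against the spread of arrays within the groups, and 12 arrays limit their precision. The fit was tested on simulated data. The KCS genes, lists, named genes and alternatives were chosen with earlier results of these data known. Named were the KCS genes, the label checks, called list members (at most 4 a list, otherwise the 2 with the smallest p in wild type) and the 5 loci most like KCS17, of which 1 is not reported here. KCS3, KCS11, KCS18, PDF1, TMM, SPCH, DEWAX and LCR67 were named after their values were seen.

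Alternatives were a block for the replicate number, a filter at 6 or none, quantile normalization, median centring, array weights, an intensity trend and leaving out each array. Leaving out the gmi1-1 libraries that stand apart was added after seeing the data. Same-numbered arrays deviated together between genotypes, with correlations of 0.54 to 0.67 untreated and 0.17 to 0.41 irradiated, so the numbers pair those comparisons. Between treatments the correlations were 0.49, 0.07 and 0.53 for wild type replicates 1, 2 and 3, so the numbers may pair wild type arrays there too. In gmi1-1 they were 0.05 to 0.14. The main fit pairs no comparison by number.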

Additional observations from a re-analysis of the deposited data

How the results depend on the processing

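For irradiation in wild type, 449 loci were called with all arrays, 297 with a filter at 6, 1407 with array weights, 726 without both gmi1-1 replicate 1 libraries, 857 without gmi1-1 irradiated replicate 3 as well, and 111 to 591 when each array was left out in turn. Of the KCS genes of the rule 0 to 1 passed, never a paralog. That 1 was KCS17, chosen for its rise, so its count here and in gmi1-1 supports nothing. In gmi1-1, 0 loci were called as labelled, 417 with array weights, 750 without both replicate 1 libraries, 343 without irradiated replicate 3 as well, and 0 to 327 without single arrays. Of the KCS genes of the rule 0 passed as labelled, 1 with array weights, 1 without both replicate 1 libraries and 0 to 1 without single arrays, again KCS17. Outside the rule, KCS19 passed with array weights in wild type and in gmi1-1 (limma adjusted p of 0.00235 and 0.0195). KCS19 and KCS16 also passed in gmi1-1 without untreated replicate 1 alone (limma adjusted p of 0.00465 and 0.023). For gmi1-1 against wild type untreated, 1 locus was called with all arrays, 0 with the filter at 6, 0 with median centring, 0 without the 3 libraries that stand apart, and 0 to 2 without single arrays. The other genotype comparisons had 1 call under every alternative run. Over all 3 genotype comparisons, of 501 alternative values of single paralogs, 0 were called and 80 changed sign.

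With the replicate number as a block, 585 loci were called for irradiation in wild type and 0 in gmi1-1. Not every array deviated most like its own number. The block changed no call between the genotypes, and no KCS call.

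Values that changed sign were not called. In wild type these were KCS2 (-0.18 with array weights, -0.28 to 0.68 without single arrays), KCS5 (-0.41 to 0.16), KCS10 (0.15 with quantile normalization, -0.23 to 0.24), KCS20 (0.0131 with quantile normalization, -0.33 to 0.0883), CER10 (-0.37 to 0.03), CYP86A1 (-0.58 to 0.48), FAR1 (0.0136 with quantile normalization, 0.0294 with array weights, -0.10 to 0.0617) and FATB (0.0090 with quantile normalization). In gmi1-1 with quantile normalization they were KCS2 (0.0628), KCS4 (0.0175), CER26 (0.0189), LOH2 (0.25) and FATB (0.0358), and with median centring LOH2 (0.16) and FATB (0.01). LOH2 was 0.0029 with array weights. Without both replicate 1 libraries CYP86A1 was -0.005 and LOH2 0.03. With irradiated replicate 3 left out as well, or single arrays in turn, KCS2 ran between -0.64 and 0.065, KCS4 between -0.48 and 0.165, CYP86A1 between -0.185 and 1.06, LOH1 between -1.55 and 0.20, LOH2 between -0.25 and 0.305 and FATB between -0.38 and 0.135. The cause of these changes was not tested. Values near 4 lie close to background, where GCRMA leaves little resolution. Of the genes in this list only KCS2 (lowest array 4.27) and CYP86A1 (lowest array 3.59) came near 4, and the others stood well above it.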
